A study of Mus musculus with 8 samples.

Results

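Glycolysis splits glucose to pyruvate in the cytosol, and lactate dehydrogenase turns pyruvate into lactate, which leaves the cell through monocarboxylate transporters. Tumour cells commonly run this route at a high rate also in the presence of oxygen, and squamous lung carcinoma is known among lung tumours for its high glucose uptake. The genes described here are 10 of the 55487 genes in the deposited tables, taken by symbol: Slc2a1, Slc16a1, Slc16a3, Bsg, Hk1, Hk2, Pfkp, Pkm, Ldha and Ldhb. Slc2a1 encodes the glucose transporter GLUT1, Slc16a1 and Slc16a3 the lactate transporters MCT1 and MCT4, and Bsg the chaperone basigin that takes both MCTs to the cell surface. Hk1 and Hk2 encode hexokinases, Pfkp the platelet-type phosphofructokinase, Pkm the muscle-type pyruvate kinase, and Ldha and Ldhb the A and B chains of lactate dehydrogenase. All 10 were measured and passed the filter on low counts.

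Bulk RNA-seq was made from 4 mouse lung squamous cell carcinoma (LUSC) lines derived from genetically engineered mice, 2 libraries each, in a series on loss of ACKR3, an atypical chemokine receptor. PLA and PLA4 are grouped here as the PLA lines, PL1 with PL12 as the PL lines. The labels give no treatment, time or age, do not spell out these letters and name no alleles, so what the 4 lines share beside their tumour type is not known here. Each family is 2 lines, so a difference between lines cannot be told apart from one tied to Ackr3. The labels do not tell whether libraries of the same line are separate cultures, so p-values from single libraries measure the spread between libraries, which may be technical. Ackr3 stood at 0.0254 to 0.387 CPM (counts scaled to library size, here with TMM, which adjusts it for composition) in the PLA libraries and at 25.3 to 86.3 CPM in the PL libraries, so the low level went with the PLA names.

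Library totals ran from 48857960 to 142458281 expected counts. The replicates of PLA4 and of PL1 stood apart from each other. More than 2-fold differences between the 2 libraries of a line, on the log2(CPM + 1) scale, were found for 1416 genes in PLA4 and 1173 in PL1, against 8 in PLA and 64 in PL12. The 7 squamous markers (Krt5, Krt14, Trp63 and others) were all present in each library, and their summed level was 9205 to 18256 CPM in PLA, PLA4 and PL1 and 2054 to 2127 CPM in PL12. The 8 fibroblast markers summed to 0.762 to 10.4 CPM except in PL1 replicate 2, at 282 CPM, of which Col1a1 was 254 CPM. The 8 immune markers summed to 79.5 to 83.9 CPM in PLA, where Itgam was 48.1 to 51.5 CPM, and to 3.47 to 22.9 CPM elsewhere, while the defining Ptprc stood at 0 to 0.0264 CPM in all libraries. The 4 endothelial markers summed to 0.368 to 2.44 CPM. No marker of these 4 lists was called in all 4 comparisons of the families, as defined below. The part of these differences in the results below was not tested.

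Of the 10 genes, the families differed most in Slc16a3, which was higher in both PLA lines than in both PL lines. In CPM, Pkm, Ldha and Pfkp were lower in every PLA library than in every PL library. The Pfkp margin was narrow, 43.8 against 45.8 CPM, and was not kept in TPM (a measure explained below). Slc16a3 was 42.6-fold higher in the PLA lines by the means of line CPM. Pkm was 2.06-fold, Ldha 1.72-fold and Pfkp 2.55-fold lower. In bulk RNA a change in level per cell and a change in the share of cells that express a gene cannot be told apart. Libraries of the families did not overlap in CPM for 1 of the 10 genes with PLA above PL and for 3 with PLA below. All genes gave 8.56% above and 7.18% below. In edgeR's quasi-likelihood test on single libraries, a gene was called where adjusted p was below 0.05 with 1 sign when either PLA line was set against either PL line, 4 comparisons in all. This held for 1 gene, Slc16a3, higher in the PLA lines, against a background of 1.23% of 18648 genes called higher and 0.767% called lower.

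**Figure D1:**
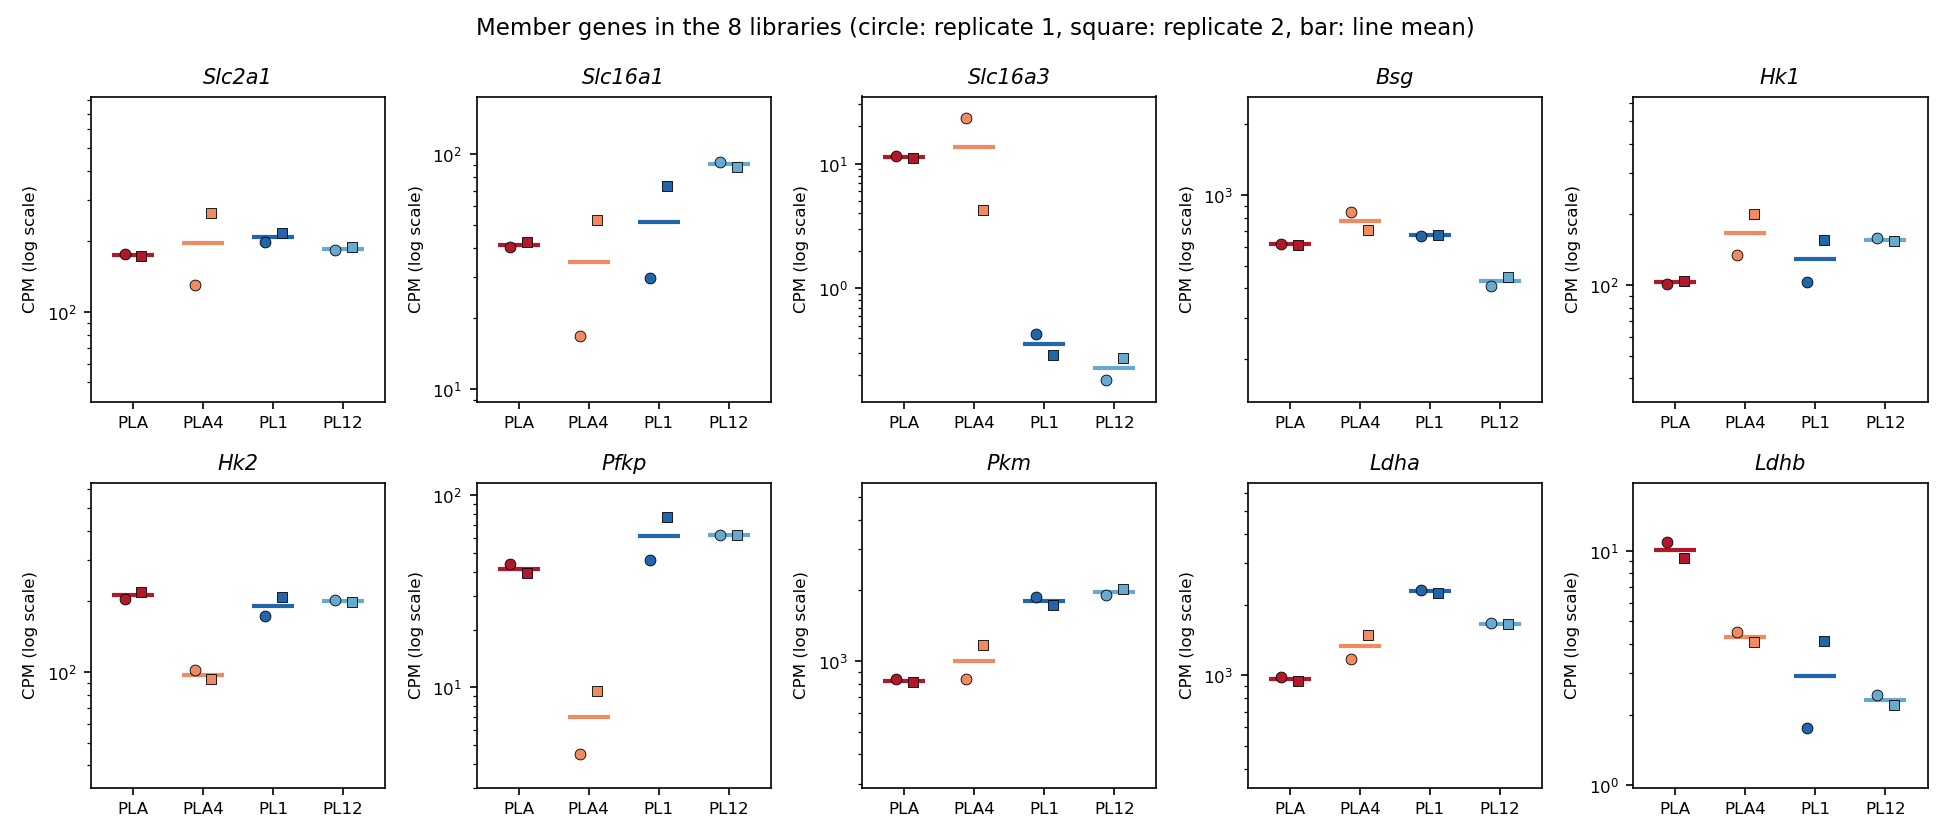
CPM of each of the 10 genes (log axis, 1 panel a gene) in the 4 lines, with a circle for replicate 1, a square for replicate 2 and a bar for the line mean. The Slc16a3 panel shows all 4 PLA libraries at 4.24 CPM or more and all 4 PL libraries at 0.426 CPM or less, and the Pkm and Ldha panels show every PLA library below every PL library.

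MCT4 is the monocarboxylate transporter of strongly glycolytic cells, which it serves mainly for lactate export, and its gene is a textbook target of hypoxia-inducible factor (HIF). Slc16a3 lies on chr11:120948480-120960868 (GRCm38, plus strand). The PLA libraries read 11.6 and 11.1 CPM, and those of PLA4 23.1 and 4.24 CPM. In PL1 it was at 0.426 and 0.291 CPM, and in PL12 at 0.184 and 0.276 CPM. The families did not overlap, the 2 PLA4 libraries differed 5.45-fold from each other, and the PL values rested on 9.01 to 37.2 expected counts against 613 to 2988 in the PLA libraries.

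The log2 fold change of Slc16a3 was 4.99 ± 0.84 (SE) for PLA against PL1 and 5.59 ± 0.88 for PLA against PL12. For PLA4 it was 5.26 ± 0.85 against PL1 and 5.86 ± 0.89 against PL12. The largest adjusted p of these comparisons was 0.0219, for PLA4 against PL1. With all libraries, neither PLA4 against PLA (log2 fold change 0.27, adjusted p = 0.803) nor PL12 against PL1 (-0.60, adjusted p = 0.615) passed the test. The PLA4 to PLA difference was called in opposite directions when 1 PLA4 library was left out: -1.42 without replicate 1 (adjusted p = 0.0342) and 1.09 without replicate 2 (adjusted p = 0.0461). The PLA4 to PL1 comparison lost its call when any library of PLA, PL1 or PL12 was left out, with adjusted p between 0.0519 and 0.0753, and with limma on log2(TPM + 1) without a filter (0.0845), and kept it without either PLA4 library. The PLA to PL1 call was lost without PLA replicate 1 (0.0504), and both calls against PL12 without PL12 replicate 1 (0.0501 and 0.0514). Without PLA4 replicate 1 the family fold was 26.5, and without PLA4 replicate 2 it was 58.6.

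The start regions of Slc16a3 and Ldha are shown because their libraries did not overlap between the families, in opposite directions, and both are known HIF targets. Only Slc16a3 was called in all 4 comparisons. The bases are the 250 upstream of the start in RefSeq (GRCm38.p6), 5′ to 3′ on the gene's strand, at chr11:120948817-120949066 for Slc16a3 and chr7:46845554-46845803 for the first of 2 Ldha entries, both on the plus strand. Both windows lie inside the GENCODE gene spans, chr11:120948480-120960868 and chr7:46841475-46855627, downstream of the first annotated base. The bases upstream of those GENCODE starts were not examined. Capitals mark the core of the HIF binding motif, ACGTG or GCGTG, on either strand (CACGT and CACGC on the other).
Slc16a3: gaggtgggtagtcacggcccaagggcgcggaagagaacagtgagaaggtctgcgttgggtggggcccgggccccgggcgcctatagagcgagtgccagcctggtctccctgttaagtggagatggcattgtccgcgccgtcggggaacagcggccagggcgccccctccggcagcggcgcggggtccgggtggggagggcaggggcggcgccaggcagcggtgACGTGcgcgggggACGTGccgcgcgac
Ldha: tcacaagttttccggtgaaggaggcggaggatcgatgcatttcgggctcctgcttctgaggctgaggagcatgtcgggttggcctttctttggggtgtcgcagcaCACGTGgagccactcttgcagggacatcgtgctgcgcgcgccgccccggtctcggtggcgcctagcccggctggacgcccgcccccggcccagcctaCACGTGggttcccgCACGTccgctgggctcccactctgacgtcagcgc
Slc16a3 held ACGTG at 27 and at 14 bases before the start. The first Ldha entry held matches at 145, 144, 48, 47 and 34 bases, of which the palindromes CACGTG count as 2 overlapping matches each. Its second entry held 1 match, CACGC at 59 bases. Of the 2 Pkm entries, the first held none and the second held CACGT at 75 bases. Of the 10 genes, 9 had an entry, 12 entries in all, and 10 of the 12 held a core in these 250 bases, against 38.6% of all 32851 entries. Hk1, Pkm and Ldha had 2 entries each, and the entries compared were not matched for base composition. These letters are a description of the windows and not evidence of binding, and their bearing on the levels was not tested.

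MCT1, the other lactate transporter here, moves lactate in either direction. Slc16a1 was at 40.1 and 42.2 CPM for PLA, 16.8 and 52.6 for PLA4, 29.6 and 73.1 for PL1, and 92.9 and 88.5 for PL12. The families overlapped, and the libraries of PLA4 and of PL1 differed 3.14-fold and 2.46-fold from each other. By line means it was 1.87-fold lower in the PLA lines, and with all libraries no pair of lines passed the test in edgeR. The largest difference was PLA4 against PL12 (log2 fold change -1.39 ± 0.59, adjusted p = 0.113). That difference was called with DESeq2 (adjusted p = 0.0311), without the count filter (0.0428) and without PLA4 replicate 2 (-2.43, adjusted p = 0.0225). Without both PL1 replicate 1 and PLA4 replicate 2, Slc16a1 was called lower in all 4 comparisons of the families. Without PL1 replicate 2 and PLA4 replicate 1 it was called higher in both PLA lines than in PL1 and lower than in PL12.

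Measured in TPM (abundance per transcript length, on which genes can be set against each other), Slc16a3 made up 44.0% and 41.9% of summed Slc16a1 and Slc16a3 in PLA. It made up 78.8% and 17.0% in PLA4, 2.51% and 0.488% in PL1, and a mean of 0.501% in PL12. All PLA libraries lay above all PL libraries, with the widest gap between replicates in PLA4. The summed TPM of the pair was 22.1 to 27.2 in the PLA libraries and 10.4 to 30.0 in the PL libraries. The families thus stood apart in the share of Slc16a3 and overlapped in the sum.

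Basigin was among the 3 genes with the highest TPM in every library, at 555 to 1128 TPM. Bsg stood at 620 and 610 CPM for PLA, 844 and 712 for PLA4, 667 and 679 for PL1, and 410 and 449 for PL12. PL12 was the low line. It was lower than PLA (PLA minus PL12 0.52 ± 0.15, adjusted p = 0.0337), PLA4 (0.86 ± 0.15, adjusted p = 0.00696) and PL1 (PL12 minus PL1 -0.65 ± 0.15, adjusted p = 0.0248). No other pair passed the test for Bsg, though PLA4 against PLA (0.34) was called with DESeq2 (adjusted p = 0.0353) and without PLA4 replicate 2 (0.0446). The PLA to PL12 and PL12 to PL1 calls were each lost without 4 of the 8 libraries (PLA or PL12 replicate 1 or 2), with adjusted p up to 0.239 and 0.149, and the PLA4 to PL12 call was lost without PL12 replicate 1 (adjusted p = 0.0604). With DESeq2's size factors the PLA to PL12 difference of Bsg had an adjusted p of 0.0517. PL12 was also the line with the lowest squamous marker sum.

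The glucose transporter gene did not separate the families. Slc2a1 was at 177 and 174 CPM for PLA, 130 and 264 for PLA4, 198 and 217 for PL1, and 184 and 188 for PL12. The PL libraries lay within the range of the 2 PLA4 libraries, which differed 2.03-fold. With all libraries no pair of lines passed the test, with log2 fold changes between -0.24 and 0.17. The PLA4 values hung on which of its libraries was used. Without PLA4 replicate 1, Slc2a1 was called higher in PLA4 than in PL12 (0.51, adjusted p = 0.026) and PLA (0.59, adjusted p = 0.019). Without PLA4 replicate 2 it was called lower in PLA4 than in PL12 (-0.52, adjusted p = 0.0254) and PL1 (-0.66, adjusted p = 0.029). By line means it was 1.06-fold lower in the PLA lines, and 1.12-fold higher without PLA4 replicate 1.

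**Figure D2:**
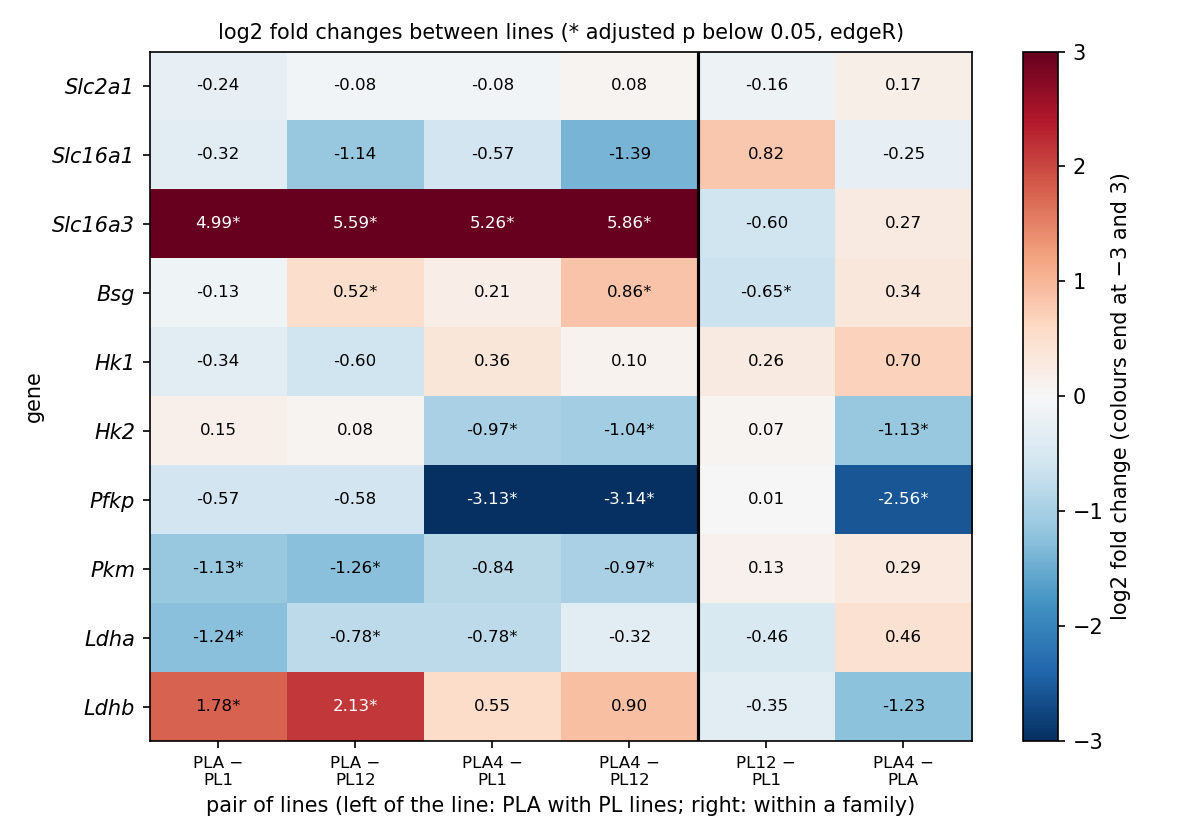
log2 fold changes of the 10 genes (rows) in the 6 pairs of lines (columns; the first line named minus the second), coloured from -3 to 3, with an asterisk where adjusted p is below 0.05 in edgeR. Slc16a3 has 4 asterisks left of the dividing line and none right of it, while Hk2 and Pfkp have theirs in the columns with PLA4.

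Hexokinases commit glucose to the cell by phosphorylating it; Hk1 is widely expressed and Hk2 is the inducible form often raised in tumours. Hk2 was at 204 and 220 CPM for PLA, 101 and 93.2 for PLA4, 174 and 208 for PL1, and 203 and 198 for PL12. PLA4 was low. Among the other 3 lines PL1 overlapped both PLA and PL12, while both PLA libraries lay just above both PL12 libraries. Hk2 was lower in PLA4 than in PLA (log2 fold change -1.13 ± 0.13, adjusted p = 0.00322), PL1 (-0.97 ± 0.13, adjusted p = 0.0159) and PL12 (-1.04 ± 0.13, adjusted p = 0.00284), and no pair among the other lines passed the test. The PLA4 to PL1 call was lost without any 1 library of PLA or PL12 (adjusted p 0.0603 to 0.0687). The other 2 calls held without each library in turn.

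Hk1 was at 101 and 104 CPM for PLA, 134 and 200 for PLA4, 103 and 156 for PL1, and 158 and 154 for PL12. The families overlapped, and with all libraries no pair passed the test in edgeR. The nearest to it was PLA4 against PLA (log2 fold change 0.70 ± 0.25, adjusted p = 0.0812), which was called with DESeq2 (adjusted p = 0.0307) and without PLA4 replicate 1, PL1 replicate 1 or PL1 replicate 2 (0.0323, 0.0463 and 0.0342). PLA against PL12 (-0.60 ± 0.25, adjusted p = 0.106) was called lower for Hk1 with DESeq2 (0.0468) and without PLA4 replicate 2 or PL1 replicate 2 (0.0416 and 0.0436). By TPM, Hk2 was a mean of 64.7% of the summed hexokinases Hk1 and Hk2 in PLA, 57.9% in PL1 and 51.6% in PL12. In PLA4 it was 35.3% and 29.1% in the 2 libraries, so Hk1 was the more abundant of the pair in both. The PL12 libraries read 48.3% (replicate 1) and 54.9% (replicate 2). By TPM, Hk1 was thus the more abundant in PL12 replicate 1 and Hk2 in replicate 2. This switch was not seen in CPM, where PL12 was at 203 and 198 for Hk2 and at 158 and 154 for Hk1. Hk2 TPM was 56.3 and 71.7 in PL12 and Hk1 TPM 60.3 and 59.0, so the order of the pair in PL12 is uncertain. The third hexokinase gene Hk3 stood at 0.122 CPM or less in every library.

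Phosphofructokinase makes the committed step of glycolysis, and Pfkp is 1 of its 3 genes. Pfkp was at 43.8 and 39.2 CPM for PLA, 4.50 and 9.57 for PLA4, 45.8 and 77.5 for PL1, and 62.1 and 62.3 for PL12. It shared with Hk2 the low level in PLA4, and in CPM the PLA libraries stood just below the lowest PL library. In TPM the families overlapped for Pfkp, with PLA at 23.8 and 23.2 and PL1 replicate 1 at 23.6. PLA4 was lower than PLA (log2 fold change -2.56 ± 0.40, adjusted p = 0.00678), PL1 (-3.13 ± 0.41, adjusted p = 0.0138) and PL12 (-3.14 ± 0.41, adjusted p = 0.00301). With all libraries, PLA itself did not pass against PL1 (-0.57, adjusted p = 0.299) or PL12 (-0.58, adjusted p = 0.269). In that fit PLA4 was thus the line that carried the calls. Without PL1 replicate 1 and PLA4 replicate 2, PLA differed by -0.95 from PL1 and by -0.65 from PL12, so this reading hangs on the libraries used. The PLA4 to PLA call was lost without PLA replicate 1 (adjusted p = 0.052), and the PLA4 to PL1 call without any 1 library of PLA or PL12 (adjusted p 0.0523 to 0.056).

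The other phosphofructokinase genes did not share this pattern. Pfkl was at 216 to 283 CPM in the PLA libraries and 187 to 273 CPM in the PL libraries. Pfkm, the muscle type, was at 25.9 to 35.95 CPM in the PLA and 12.5 to 23.7 CPM in the PL libraries, and it passed in 3 of the 4 comparisons. Pfkp overlaps Pitrm1, on the other strand, by 748 bases, and no source used here says whether the counting used strand. Reads in that stretch may therefore be shared. Pitrm1 was at 97.0 and 117 CPM for PLA4, 40.5 and 41.1 for PLA and 103 to 151 for the PL lines.

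Pyruvate kinase makes the last step to pyruvate, and Pkm gives the M1 and M2 forms by splicing, which gene-level counts do not separate. Pkm lies on chr9:59656368-59679375 (GRCm38, plus strand). The PLA libraries read 836 and 813 CPM, and those of PLA4 841 and 1171 CPM. In PL1 it was at 1877 and 1732 CPM, and in PL12 at 1908 and 2039 CPM. The highest PLA library lay well below the lowest PL library. Pkm was lower in PLA than in PL1 (log2 fold change -1.13 ± 0.20, adjusted p = 0.0105) and PL12 (-1.26 ± 0.20, adjusted p = 0.00494), and in PLA4 than in PL12 (-0.97 ± 0.20, adjusted p = 0.0124).

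PLA4 against PL1 missed the threshold for Pkm (-0.84 ± 0.20, adjusted p = 0.0529). Under 7 of 17 alternative settings all 4 comparisons passed. Without PLA4 replicate 2 the PLA4 to PL1 value was -1.09 (adjusted p = 0.0193). The PLA to PL1 call was lost without either PLA library (adjusted p 0.0864 and 0.0917), the PLA to PL12 call without PLA replicate 2 (0.0503), and the PLA4 to PL12 call without either PL12 library (0.0611 and 0.0722). Within the families Pkm did not pass, for PLA4 against PLA (0.29, adjusted p = 0.315) or PL12 against PL1 (0.13, adjusted p = 0.67). The overlapping transcript Gm49759 held at most 1.80% of the Pkm count in any library.

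The A chain of lactate dehydrogenase favours lactate formation in textbook accounts, and the B chain the reverse. Ldha had the highest TPM of the 10 genes in every library. It was at 983 and 943 CPM for PLA, 1168 and 1484 for PLA4, 2318 and 2241 for PL1, and 1661 and 1651 for PL12. The lines fell in the order PLA, PLA4, PL12, PL1, and with all libraries the neighbours in that order missed the threshold in edgeR (adjusted p = 0.0925 for PLA4 against PLA, 0.192 for PLA4 against PL12 and 0.103 for PL12 against PL1). DESeq2 called Ldha for PLA4 against PLA (adjusted p = 0.00941) and PL12 against PL1 (0.0248). The former was also called without PLA4 replicate 1 or PL1 replicate 2 (0.0298 and 0.0476), and the latter without PLA4 replicate 1 or 2 (0.0397 and 0.0429). Ldha was lower in PLA than in PL1 (log2 fold change -1.24 ± 0.18, adjusted p = 0.00495) and PL12 (-0.78 ± 0.17, adjusted p = 0.0155), and in PLA4 than in PL1 (-0.78 ± 0.17, adjusted p = 0.0461).

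The Ldha call for PLA4 against PL1 held without PLA4 replicate 2 (adjusted p = 0.0225) and was lost without each of the other 7 libraries in turn (adjusted p 0.0615 to 0.144) and with limma on log2(TPM + 1) without a filter (0.0872). The PLA to PL1 call was lost without either PLA library (0.0559 and 0.0612) and the PLA to PL12 call without any 1 library of PLA or PL12 (0.0763 to 0.106). The pseudogene copies Ldha-ps, Ldha-ps2 and Ldha-ps3 each held at most 0.0214% of the Ldha count. Copies under other names are not covered by this value.

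Ldhb was far lower than Ldha, at 1.75 to 10.8 CPM. It was at 10.8 and 9.30 CPM for PLA, 4.50 and 4.08 for PLA4, 1.75 and 4.11 for PL1, and 2.41 and 2.20 for PL12. PLA was high, PLA4 replicate 2 lay just below PL1 replicate 2, and PL12 lay within the range of PL1. Ldhb was higher in PLA than in PL1 (log2 fold change 1.78 ± 0.41, adjusted p = 0.0235) and PL12 (2.13 ± 0.42, adjusted p = 0.00992), and PLA4 did not pass against either PL line (0.55 and 0.90, adjusted p = 0.408 and 0.129). Both PLA calls were lost without any 1 library of PLA or PL12 (adjusted p 0.0546 to 0.142). Without PL1 replicate 1 or replicate 2, the Ldhb difference of PLA4 and PL12 did pass (adjusted p = 0.0196 and 0.021). PLA4 against PLA (-1.23, adjusted p = 0.0634) was called lower for Ldhb without either of these libraries too (0.00864 and 0.0106), with DESeq2 (0.016), without the count filter (0.045) and with limma on log2(TPM + 1) (0.0448).

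By TPM, Ldhb made up a mean of 1.32% of summed Ldha and Ldhb for PLA, 0.430% for PLA4, 0.168% for PL1 and 0.190% for PL12. All PLA libraries had a larger share (0.362% or more) than all PL libraries (0.237% or less). The sum was 1023 to 1567 TPM in the PLA and 1677 to 2455 TPM in the PL libraries and followed Ldha.

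**Figure D3:**
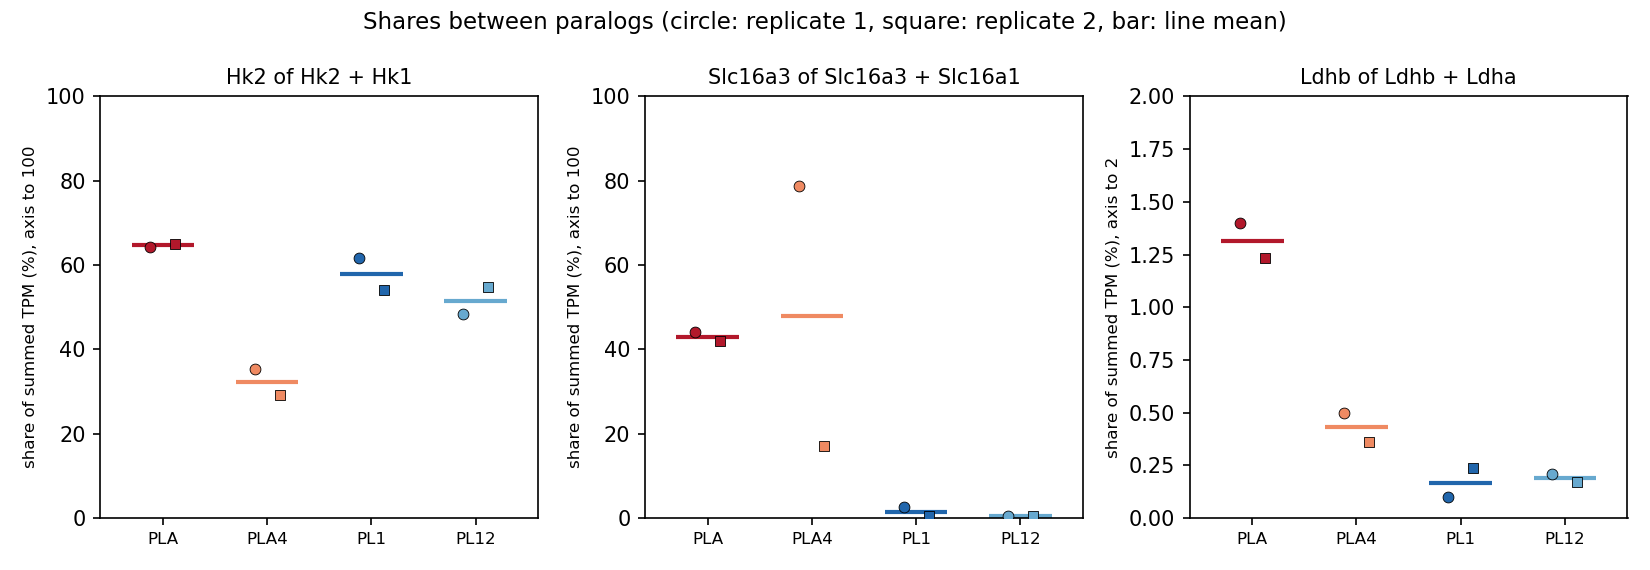
Share of the first gene in the summed TPM of a pair of related genes, in percent (axes start at 0; the Ldhb axis ends at 2%), by line, with a circle for replicate 1, a square for replicate 2 and a bar for the line mean. Hk2 is lowest in PLA4, Slc16a3 is at 17.0% or more in every PLA library and 2.51% or less in every PL library, and Ldhb is highest in PLA.

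Seen by pair of lines, the 10 genes gave 2 higher and 2 lower calls for PLA against PL1, where 27.3% of all genes were called, and 3 higher and 2 lower for PLA against PL12, where 37.7% were. PLA4 against PL1 gave 1 higher and 3 lower, against 8.54% of all genes, and PLA4 against PL12 gave 2 higher and 3 lower, against 36.0%. Within the families, PL12 against PL1 gave 1 call, Bsg, with 23.7% of all genes called, and PLA4 against PLA gave 2, Hk2 and Pfkp, with 29.0%. These comparisons share libraries. Slc2a1, Slc16a1 and Hk1 were called in no pair in this fit, and each was called in at least 1 pair under other settings, as given above.

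With the line as the unit, on counts summed over the 2 libraries of each line, edgeR called 0.00% of 18859 genes and none of the 10. At an unadjusted p below 0.05 stood 4.60% of all genes and 2 of the 10, Slc16a3 and Pkm. Their edgeR log2 fold changes were 5.36 ± 0.62 (unadjusted p = 0.000668) and -1.04 ± 0.32 (unadjusted p = 0.0285), with an adjusted p of 0.852 for each. DESeq2 called 348 genes on the same sums and 1 of the 10, Slc16a3, and limma on log2 TPM called 0. Of the 10 log2 fold changes 3 were above 0 and 7 below, with a median of -0.21 against 0.04 over all genes tested.

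The other glycolytic enzymes, 20 of 23 tested, gave no call in all 4 comparisons. On summed profiles 13 of 19 had a negative log2 fold change and the median was -0.38, against 8937 of 18859 and 0.04 over all genes tested. Gapdh was at 827 to 1923 CPM in the PLA and 1709 to 2390 CPM in the PL libraries (-0.73, unadjusted p = 0.112), with PLA4 replicate 2 inside the PL range. Aldoa, the muscle-type aldolase, was at 576 to 818 CPM against 985 to 1304 CPM (-0.59, unadjusted p = 0.124), with no overlap. Pfkm, given above, went the other way (0.82, unadjusted p = 0.121). None of these passed in all 4 comparisons, and Gapdh has many near-identical copies in the genome that can share its reads.

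Enolase shows how such a copy bears on a value. Eno1 was at 299 to 329 CPM in the PLA and 299 to 439 CPM in the PL libraries, whereas its near-identical copy Eno1b was at 222 to 373 CPM and 623 to 711 CPM. Their sum was 522 to 673 CPM in the PLA and 923 to 1150 CPM in the PL libraries, without overlap. Eno1b was looked up after the values of Eno1 had been seen. How reads were split between them is uncertain, so the Eno1 value alone is too.

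Of the other hexose and monocarboxylate transporters, 22 of 24 were tested, and 2 were called higher and none lower in all 4 comparisons. Of all genes, 1.23% were called higher and 0.767% lower. The list's median log2 fold change was 0.83, with 16 of 22 above 0, against 0.04 and 9922 of 18859 over all genes tested. Slc16a13 was at 29.5 and 27.4 CPM for PLA, 31.7 and 28 for PLA4, 8.71 and 7.38 for PL1, and 4.71 and 4.10 for PL12. It was 4.69-fold higher in the PLA lines and held its call under all 17 alternative settings. Slc16a11 was at 3.0 and 3.20 CPM for PLA, 5.57 and 5.07 for PLA4, 1.29 and 0.793 for PL1, and 0.368 and 0.414 for PL12. It was 5.88-fold higher and held under 13 of 17, failing without any 1 library of PLA or PL12.

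Both genes belong to the monocarboxylate transporter family and are neighbours, at chr11:70212752-70216417 on the plus strand (Slc16a11) and chr11:70216789-70221064 on the minus strand (Slc16a13), and do not overlap. Of the 7 genes tested within 100 kb of Slc16a11, Slc16a13 was the 1 called in all 4 comparisons, and 4 had all PLA libraries above all PL libraries. Over all genes tested, 1.23% were called higher in all 4 and 8.56% had all PLA libraries above all PL libraries. The 4 were Slc16a13, Rnasek, Alox12 and Alox12e. Rnasek, Alox12 and Alox12e each passed in 2 of the 4 comparisons. Around Slc16a3, on the same chromosome, 4 other genes were tested within 100 kb and none was called in all 4. Ccdc57 beside it was at 5.38 to 6.18 CPM in the PLA and 2.19 to 4.27 CPM in the PL libraries, and Csnk1d on the other side overlapped between the families. Sectm1b, farther along, had a log2 fold change of 5.22 on summed profiles, near the 5.36 of Slc16a3, at a low level. It was at 1.42, 1.41 and 1.26 CPM in both PLA libraries and PLA4 replicate 1, at 0.0277 CPM in PLA4 replicate 2 and at 0 to 0.0551 CPM in the PL libraries, and passed in 1 of the 4. Slc5a8, a sodium-coupled lactate transporter, was named by its small p: it stood at 32.7 and 34.5 CPM for PLA, 9.53 and 2.07 for PLA4 and 0.483 to 7.22 for the PL lines, and passed in 1 of the 4.

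Pyruvate entry into mitochondria was represented by 14 tested genes, with a median log2 fold change of 0.10. Of these, 1 was called higher (1.23% of all genes) and none lower (0.767% of all genes) in all 4 comparisons. The 1 was Pdk2, a kinase that inhibits pyruvate dehydrogenase, at 7.21 and 8.34 CPM for PLA, 12.6 and 12.8 for PLA4, 3.99 and 3.52 for PL1, and 3.68 and 3.57 for PL12. It was 2.77-fold higher in the PLA lines and held under 14 of 17 settings, failing without PLA replicate 1, PLA replicate 2 or PL12 replicate 2. Pdk1, the kinase best known as a HIF target, was at 85.8 to 112 CPM in the PLA and 78.9 to 120 CPM in the PL libraries. The pyruvate carrier gene Mpc1 was at 35.2 to 53.0 CPM and 30.0 to 37.6 CPM and passed in none of the 4. Dlat, a subunit of pyruvate dehydrogenase, was at 68.3 to 77.1 CPM against 85.7 to 106 CPM and passed in 3.

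The pentose phosphate pathway, which branches off after hexokinase, gave no call in all 4 comparisons among 7 tested genes (median 0.13). G6pdx, its entry enzyme, was at 508 and 504 CPM for PLA, 328 and 310 for PLA4, 277 and 227 for PL1, and 174 and 162 for PL12. The families did not overlap for it, and it passed in 3 of the 4. Rpe was at 57.5 to 67.8 CPM in the PLA against 73.1 to 85.0 CPM in the PL libraries and passed in 2. Taldo1 overlapped and passed in 1.

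Other genes of the hypoxia response gave no higher and 1 lower call among 20 tested, against 1.23% and 0.767% of all genes. On summed profiles 13 of 20 were below 0, with a median of -0.23, against 8937 of 18859 genes and 0.04 over all genes tested. The 1 called lower was Plod2, a collagen lysyl hydroxylase. It was at 37.0 and 34.8 CPM for PLA, 24.8 and 26.0 for PLA4, 90.6 and 64.7 for PL1, and 102 and 89.9 for PL12. It was 2.83-fold lower in the PLA lines and held under 15 of 17 settings, failing without either PLA library. Higd1a was at 36.7 to 52.1 CPM in the PLA and 64.3 to 85.3 CPM in the PL libraries (passed in 3 of 4), and Mxi1 at 74.1 to 106 CPM and 47.7 to 59.9 CPM (passed in 2). Higd1a and Mxi1 thus lay on opposite sides. Car9, a common marker of hypoxia, was at 0.132 to 1.51 CPM in all libraries.

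The 7 tested genes of oxygen sensing gave no call in all 4 comparisons (median 0.02). Hif1a was at 410 to 617 CPM in the PLA and 285 to 1092 CPM in the PL libraries, and Epas1, which encodes HIF-2 alpha, at 173 to 344 and 39.0 to 455 CPM, both overlapping. Egln1 and Egln2, which encode prolyl hydroxylases that mark HIF for decay, overlapped too. The 4 factors known to choose the Pkm exon were all below 0 (median -0.54) and none was called in all 4. Hnrnpa1 was at 341 to 676 CPM in the PLA and 567 to 1087 CPM in the PL libraries (passed in 3), Ptbp1 at 261 to 450 and 434 to 538 CPM (passed in 2), and Srsf3 at 219 to 347 and 322 to 417 CPM (passed in 2).

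**Figure D4:**
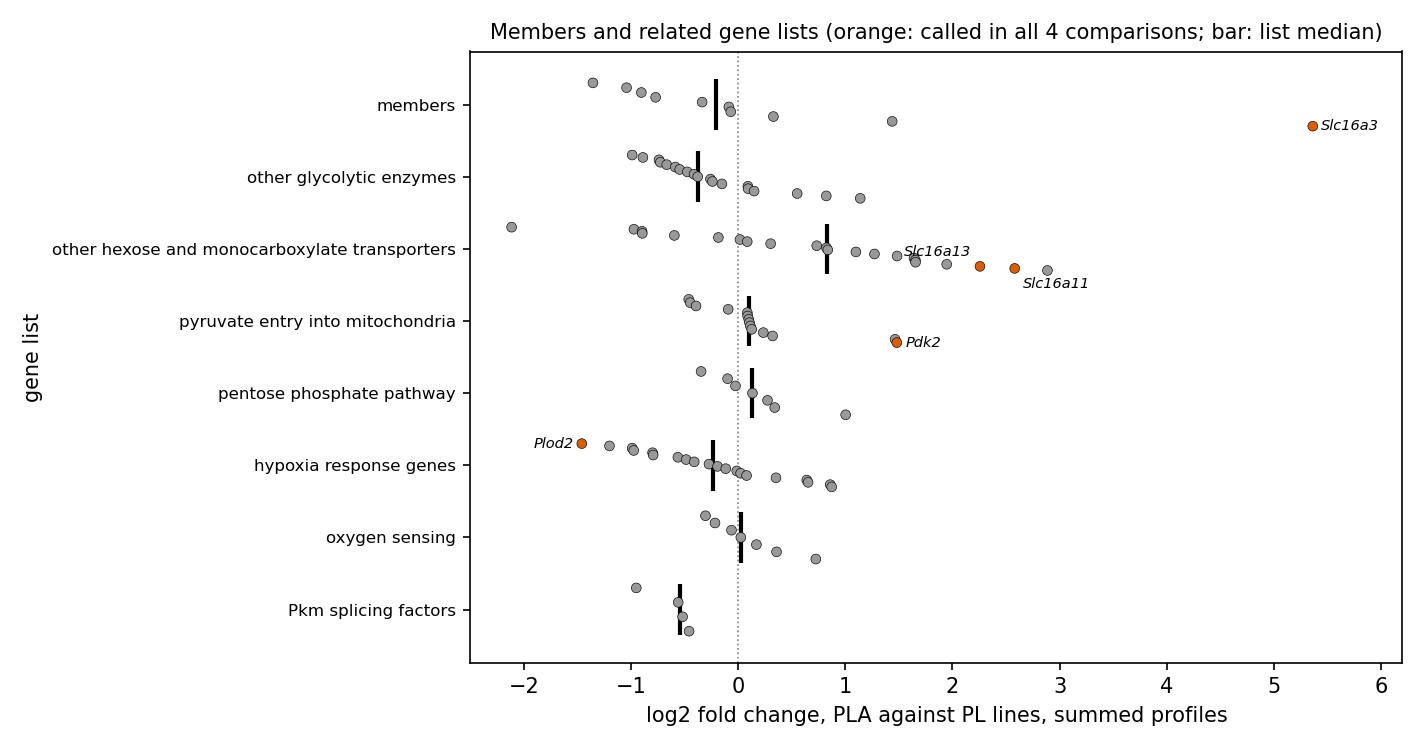
log2 fold change of PLA against PL lines on summed profiles (horizontal axis) for each tested gene of the 10 and of 7 related lists, with a bar at each list's median and orange points for genes called in all 4 comparisons on single libraries. Slc16a3 at 5.36 lies far to the right, the other glycolytic enzymes have their median at -0.38, and the transporters have theirs at 0.83.

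Over the 8 libraries, Pearson's r of log2(CPM + 1) was -0.98 between Slc16a3 and Pkm, 0.88 between Pkm and Ldha and 0.92 between Hk2 and Pfkp. The libraries are 4 pairs from 4 lines, so these are descriptions, and the first follows the split between the families. Among the 10292 genes averaging 5 CPM or more, the 5 most like Slc16a3 were Tmem106c (0.988), Tbc1d22a (0.988), Ly6k (0.987), Hacd4 (0.987) and Nrbp2 (0.986). The 5 most like Pkm were Utp4 (0.997), Ddias (0.990), Cars2 (0.986), Rab29 (0.986) and Tma16 (0.985).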

How the data were processed

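The 10 genes and the related gene lists were chosen with earlier results of these data known. The authors deposited expected counts (estimated counts, which need not be whole) and TPM per gene for 8 libraries, per the file headers. The build was GRCm38 and the tools RSEM, STAR, DESeq2 and FastQC, per the submitters' processing notes; versions and annotation release are not given in the sources used here. Libraries were Nextera XT from SMARTer PCR cDNA, per the labels' protocols. PCR reads without molecular identifiers are not independent molecules.

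Expected counts were rounded and tested with edgeR 4.0.16 (quasi-likelihood test, TMM, filterByExpr with a minimum count of 10; limma 3.58.1, R 4.3.3). One fit used the 8 libraries with 1 mean per line (18648 genes, 6 contrasts of lines), and another the counts summed per line (18859 genes, PLA against PL). Adjusted p is by Benjamini-Hochberg over all genes of a contrast, with a threshold of 0.05. The standard error is the log2 fold change divided by the root of F. CPM were TMM-scaled; a family fold is the ratio of the means of 2 line means. Alternatives were DESeq2 1.42.0 and its size factors, no count filter, limma on log2(TPM + 1) and log2(TPM + 0.1), leaving out libraries or lines, and a replicate block. Both fits were also run on simulated counts with planted family differences. The simulated lines had no other differences between them, so this run does not show the error rates where lines vary. All 10 genes were described; of each list, genes called in all 4 comparisons and the 3 of smallest p were to be named, and others named here were chosen after their values were seen. Gene coordinates are from GENCODE mouse release 21 and start regions from RefSeq GRCm38.p6.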

Additional observations from a re-analysis of the deposited data

How the results depend on the processing

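Of 357 values of the 21 called differences between lines under 17 alternative settings, 0 changed sign and 59 missed the threshold. Of 663 values of the 39 differences not called, 89 passed it, 53 of them with 2 libraries left out, and 9 of these differences passed in both directions. The count of genes called in all 4 comparisons, 1 as reported, was 2 with DESeq2, without the count filter and with limma on log2(TPM + 1) and log2(TPM + 0.1), and 0 with limma on log2(TPM + 1) without a filter. Leaving out 1 library gave 0 to 2. The replicates of PL1 and PLA4 differ most, so 1 library of each was also left out together. Without PL1 replicate 1 and PLA4 replicate 2 the count was 5, and without PL1 replicate 2 and PLA4 replicate 1 it was 3, from fits in which the spread of these lines comes from PLA and PL12. In the same order, these settings gave 8 and 6 calls for PLA against PL1 (4 as reported), 8 and 8 for PLA against PL12 (5), 8 and 9 for PLA4 against PL1 (4), 10 and 9 for PLA4 against PL12 (5), 5 and 6 for PL12 against PL1 (1), and 9 and 9 for PLA4 against PLA (2). Leaving out 1 library gave 0 to 4 calls for PLA against PL1, 1 to 6 for PLA against PL12, 0 to 6 for PLA4 against PL1, 2 to 7 for PLA4 against PL12, 0 to 2 for PL12 against PL1 and 1 to 6 for PLA4 against PLA. DESeq2 gave 2 calls for PL12 against PL1 and 6 for PLA4 against PLA, and limma on log2(TPM + 1) without a filter gave 2 for PLA4 against PL1.

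On summed profiles DESeq2 called 1 gene. The sign of small differences changed there: Slc2a1 was 0.15 without PLA4 replicate 1, 0.16 without PL1 replicate 2 and PLA4 replicate 1, 0.013 without the line PLA and 0.013 without the line PL1, and ranged from -0.38 to 0.15 as single libraries were left out. Hk1 was 0.070 without PLA4 replicate 1, 0.055 without PL1 replicate 2, 0.20 without both PL1 replicate 2 and PLA4 replicate 1, 0.22 without PLA and 0.028 without PL12, ranging from -0.29 to 0.070 over single libraries, and Hk2 was 0.11 without PLA4. Beyond the smaller number of samples, the cause was not tested. With the replicate block, PL12 against PL1 gave 0 calls and the count over all 4 comparisons stayed at 1; replicate numbers do not pair the libraries (correlation of deviations -0.19 to 0.015 between lines). Slc16a3 in the PL lines rests on 9.01 to 37.2 expected counts a library, which limits the precision of its fold change.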
